A study of Mus musculus with 60 samples.

Results

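The 10 genes described here encode the scaffold proteins of the postsynaptic density. They are Dlg1 (SAP97), Dlg2 (PSD-93), Dlg3 (SAP102) and Dlg4 (PSD-95), the synaptic membrane-associated guanylate kinases; Dlgap1, Dlgap2 and Dlgap3 (the SAPAP or GKAP proteins); and Shank1, Shank2 and Shank3. They were taken by name from 35889 genes, and the estimated counts of all their 123 annotated transcripts were summed per gene and library. All 10 passed the filter on low counts in every fit, and none had a count of 0 in any library.

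The libraries were RNA-seq of dissociated cells sorted for the neuronal marker NeuN. They came from 2 brain regions, the medial prefrontal cortex (mPFC) and the nucleus accumbens (NAc), of Ai14:cFos-TRAP2 mice of both sexes, in which a tamoxifen-dependent Cre made from the Fos locus switches on tdTomato in cells active around the time of the drug. All mice, the non-ensemble source animals included, had learned to self-administer both cocaine and sucrose, then went through extinction and cued reinstatement of each. 4-hydroxytamoxifen after the cocaine session marked the cocaine-seeking ensemble with tdTomato, cFos protein after the sucrose session marked the sucrose-seeking ensemble, both marks together defined the overlapping ensemble, and neuronal events with neither were the non-ensemble. Each of the 16 groups (2 regions, 2 sexes, 4 populations) held 3 libraries, each from 3 mice pooled before sorting, and all 4 populations of a pool were sorted from the same mice; 12 further libraries carry the label naive, which the labels do not explain and whose stated treatment is the same as for the others. The model has limits set by its design: the tdTomato mark depends on Fos reaching the level needed for recombination within the drug's window, so an ensemble is the labelled part of the active cells, and a pool gives no value for a single mouse. Cocaine seeking was always marked by tdTomato at the earlier session, and sucrose seeking by cFos protein shortly before sorting. Reward, marking method and time since activity therefore cannot be told apart. The study names the missing counterbalance as a limit. Every population here is a mix of neuron types in which markers of glia were also read, and the study counts possible debris among the sorted events. A lower level in a population therefore cannot be split into fewer cells of a type and less RNA per cell.

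Excitatory synapses hold their receptors in place through a layered scaffold. The Dlg proteins bind the tails of NMDA receptors and of AMPA receptor auxiliary subunits just under the membrane, the Dlgap proteins link the Dlg guanylate kinase domain to the Shank proteins, and the Shank proteins join the deeper layer to Homer and to actin. Dlg4 is the most abundant of the family at mature synapses, Dlg3 is best known from young synapses, Shank3 and Dlgap3 are prominent in the striatum, and mice lacking either of the last pair groom compulsively. On GRCm39, Dlg4 spans chr11:69907768-69938348, Dlgap3 chr4:127062750-127130847, Shank3 chr15:89383826-89444464 and Dlg3, on the X chromosome, chrX:99810768-99862016, while Dlg2 at chr7:90125880-92098455 covers 1972576 bases of chromosome 7, which also holds Shank1 and Shank2.

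Several libraries stood apart from their labels or from the rest before any comparison. The 48 libraries of the 4 populations held 9933361 to 24500899 counts. Of the members, Dlgap2 had the lowest count in a library, 1028, and Shank1 the highest, 21986. Ddx3y, a Y-linked gene, had 12.9 to 21.98 CPM (counts scaled to library size) in the 8 libraries of female pool 2 against 0.0697 to 2.43 CPM in the other female libraries and 16.6 to 47.7 CPM in the male ones. Slc17a7, the vesicular glutamate transporter of cortical pyramidal neurons, was at 18.4 to 84.7 CPM in the 12 female mPFC libraries and 35.7 to 42.1 CPM in those of mPFC male pool 2, against 279.7 to 703 CPM in the other 8 male mPFC libraries and 133 to 629 CPM in the NAc, so the defining marker of the mPFC was low in most libraries of that label. Drd1 and Ppp1r1b, markers of the medium spiny neurons of the striatum, were higher in the NAc (51.5 to 136 and 404 to 1360.2 CPM) than in the mPFC (12.01 to 78.4 and 81.7 to 846 CPM), with overlap. The labels also disagree among themselves: the groups here follow the titles, whose letter code the series design explains, but the free-text descriptions of 24 of these 48 libraries, all those titled male mPFC or female NAc, name the other sex and the other region, and the sex field of 2 mPFC libraries titled male (pool 3, overlapping and sucrose-seeking) is female. The region and sex comparisons rest on the titles being right. Ddx3y went with the titled sex in all libraries but those of female pool 2, while the region markers overlapped.

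Level per length put Dlg4 first in both regions. Mean CPM per kilobase of exon in the non-ensemble, over 6 pools, was 269.6 ± 30.4 (SD, n = 6) for Dlg4 in the NAc and 222 ± 47.2 in the mPFC, and Dlg4 exceeded the next gene in 6 of 6 pools of either region. In the NAc, Dlgap3 (177 ± 27.6 CPM per kilobase) and Shank1 (143 ± 21.7) followed, but Dlgap3 exceeded Shank1 in 5 of 6 pools and their SDs overlapped. Dlgap1 (116 ± 13.3), Dlg2 (102 ± 11.9), Shank3 (89.5 ± 15.3) and Dlg1 (85.2 ± 7.59) formed a middle group whose neighbours were ordered the same way in only 4 or 5 of 6 pools, and Shank2 (56.7 ± 4.40), Dlgap2 (52.9 ± 4.00) and Dlg3 (48.6 ± 4.63) were lowest; Dlg1 exceeded Shank2 in 6 of 6 pools. In the mPFC the order was Dlg4, Shank1 (133 ± 51.5), Dlgap1 (114 ± 42.1), Dlgap3 (100.3 ± 26.5), Dlg2 (87.2 ± 17.9), Shank3 (68.2 ± 14.2), Dlg1 (52.02 ± 7.60), Dlg3 (49.4 ± 14.4), Shank2 (47.9 ± 13.6) and Dlgap2 (41.3 ± 10.9). By this measure Dlgap3 stood behind Dlg4 in the NAc and behind Shank1 and Dlgap1 in the mPFC. Shank2 exceeded Dlg3 in only 3 of 6 mPFC pools. Mean TPM, a level per length that uses the effective lengths described below, gave another order. In the NAc non-ensemble it was 783 ± 83.6 for Dlg4, 371 ± 39.6 for Shank1 and 363 ± 81.4 for Dlgap3. In the mPFC it was 1016 ± 352, 592 ± 173 and 448 ± 277, with Dlgap1 at 391 ± 102. The regional difference in the place of Dlgap3 was thus not seen in TPM.

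**Figure D1:**
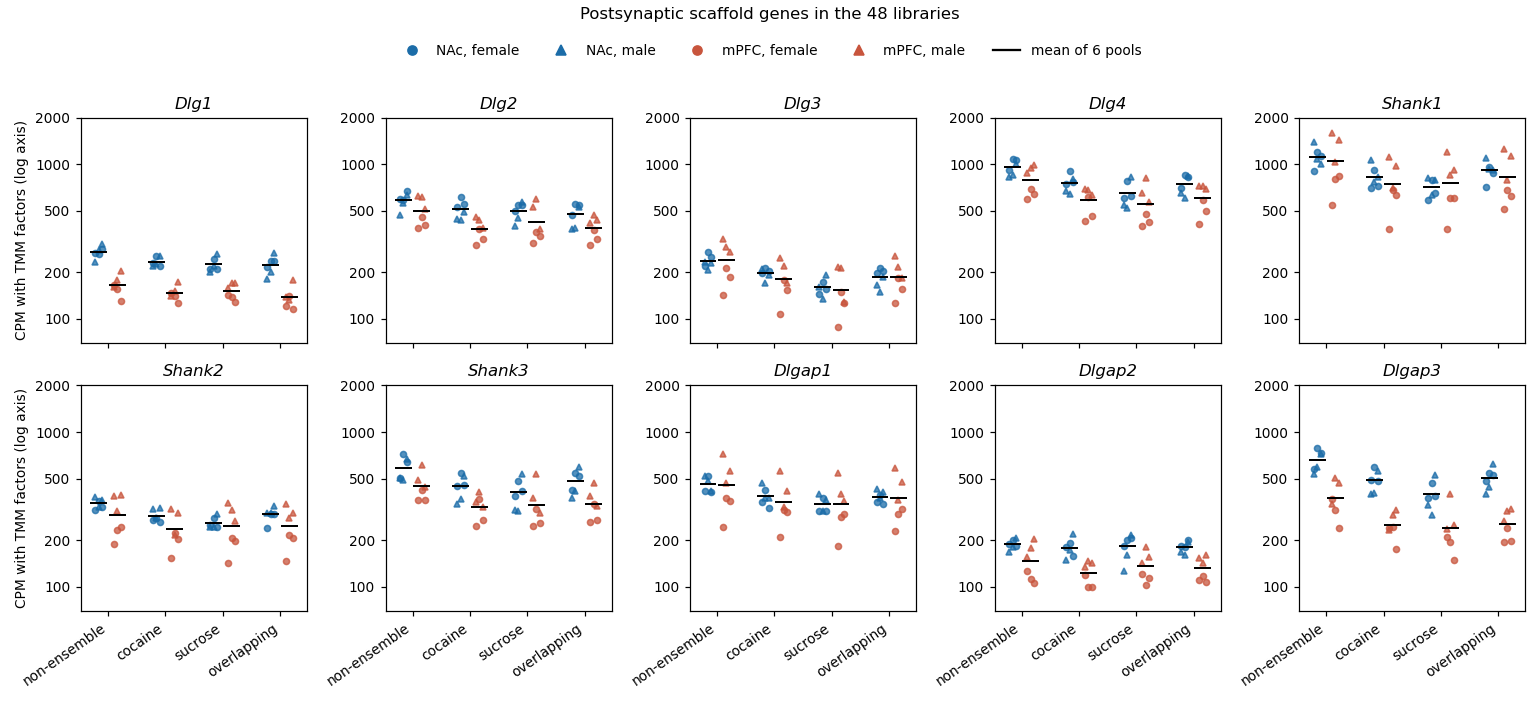
Level of each of the 10 scaffold genes in CPM in the non-ensemble, cocaine-seeking, sucrose-seeking and overlapping libraries of both regions, a point per library. In the NAc the sucrose-seeking libraries of Dlg4 lie at 526 to 826.1 CPM and the non-ensemble ones at 826.8 to 1089 CPM, so the groups nearly touch.

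The base composition of these transcripts differs widely, and the deposited effective lengths, the lengths by which Salmon divides counts to get TPM, differed between libraries, least for Dlg1 and Dlg2 and widely for members of mid-range and of high GC. Exonic GC was 44.9% for Dlg2 and 45.1% for Dlg1, 50.7% to 54.2% for Dlgap1, Dlg3, Dlgap2, Dlg4 and Shank2, and 61.8%, 62.8% and 65.9% for Shank1, Shank3 and Dlgap3. Central stretches of the longest coding exon of 4 members, 90 bases each, from the coding transcript with most counts (GENCODE vM39, GRCm39, plus strand), are shown for the pair of members with the highest exonic GC and the pair with the lowest, with G and C in capitals. A stretch need not match its gene: that of Dlg1 is richer in GC than the gene as a whole. The Dlg1 and Dlg2 stretches, set side by side from their first base without gaps, share 72 of 90 bases.
Dlgap3-201 exon 3, chr4:127088912-127089001, 61.1% GC: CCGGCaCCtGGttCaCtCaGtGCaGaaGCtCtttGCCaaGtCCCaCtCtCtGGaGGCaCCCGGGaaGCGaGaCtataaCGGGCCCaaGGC
Shank3-203 exon 21, chr15:89432913-89433002, 61.1% GC: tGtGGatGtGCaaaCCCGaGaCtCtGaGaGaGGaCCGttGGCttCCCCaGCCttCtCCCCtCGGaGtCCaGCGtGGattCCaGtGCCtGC
Dlg1-205 exon 17, chr16:31656912-31657001, 55.6% GC: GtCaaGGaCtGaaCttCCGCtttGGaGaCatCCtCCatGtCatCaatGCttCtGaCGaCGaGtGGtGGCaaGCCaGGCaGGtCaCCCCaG
Dlg2-204 exon 15, chr7:92024806-92024895, 45.6% GC: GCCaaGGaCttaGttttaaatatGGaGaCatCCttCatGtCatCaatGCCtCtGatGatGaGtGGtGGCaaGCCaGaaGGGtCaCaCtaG

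The ratio of effective to annotated length, weighted over each gene's transcripts, was near 1 for Dlg1 (0.81 to 1.02 over 48 libraries) and Dlg2 (0.918 to 1.19). For Dlgap3 it was 0.384 to 1.06 (median 0.56) in the NAc non-ensemble and 0.123 to 0.409 (median 0.226) in the sucrose-seeking ensemble, for Shank3 0.44 to 1.03 (median 0.566) and 0.177 to 0.434 (median 0.268), and for Dlgap2 0.373 to 0.776 (median 0.432) and 0.149 to 0.33 (median 0.202). A low ratio means that fewer fragments were expected from those transcripts in that library, and it raises TPM relative to the counts. The ratio therefore moved with the population in the same comparisons as the counts below. Results on counts scaled by these lengths are given with the comparisons of populations and of regions; none was computed for the naive libraries. The part of the ratio in the count results was not tested beyond that.

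**Figure D2:**
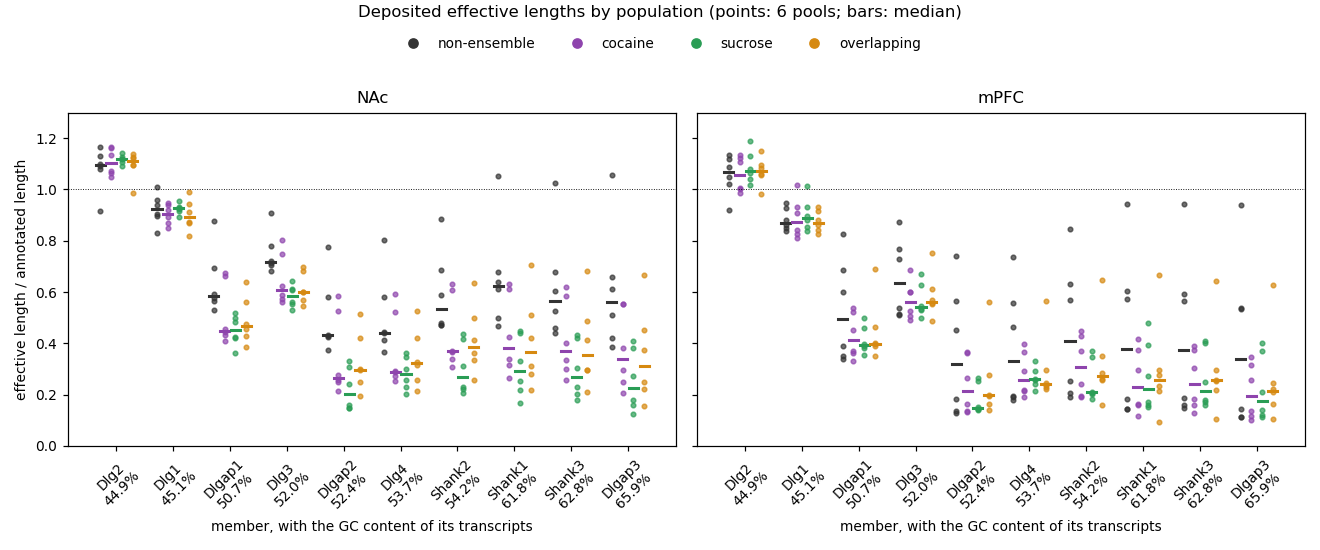
Ratio of effective to annotated transcript length for the 10 scaffold genes by population and region, a point per library, genes ordered by GC content. Dlg1 and Dlg2 stay near 1 in every population, while Dlgap3 has a median of 0.56 in the NAc non-ensemble and 0.226 in the NAc sucrose-seeking ensemble.

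Which scaffold genes differed between the sucrose-seeking ensemble and the non-ensemble of the same mice was asked first. In the NAc, 8 of 10 were lower in the sucrose-seeking ensemble (edgeR quasi-likelihood test, sexes averaged, Benjamini-Hochberg adjusted p under 0.05), where 30.0% of all genes were called in either direction and 16.7% were called lower. The median log2 fold change of the 10 was −0.49 and that of all genes tested was 0.20. Of the members' 60 pairs of gene and pool, 58 were lower in the sucrose-seeking library, and 9 genes were lower in 6 of 6 pools. These pairs come from the same 6 pools, so they are not independent. The share of all genes lower in 6 of 6 pools was not computed in either region. Nor was the share of all genes whose groups did not overlap. On length-scaled counts only Dlg3 remained lower, and Shank2 and Dlgap2 were higher.

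Among the Dlg genes, Dlg4 fell furthest with Dlg3. Dlg4 was at 827 to 1089 (median 963) CPM in the 6 non-ensemble pools and 526 to 826 (median 614) CPM in the 6 sucrose-seeking ones (log2 fold change −0.57 ± 0.12, adjusted p = 0.000888). Dlg3 was at 209 to 273 (median 232) CPM in the non-ensemble and 136 to 191 (median 158) CPM in the sucrose-seeking ensemble (log2 fold change −0.57 ± 0.09, adjusted p = 0.000117). For both genes the highest sucrose-seeking library lay below the lowest non-ensemble one, but for Dlg4 these nearly touched (826.1 against 826.8 CPM). Dlg1, which also traffics AMPA receptors, was at 233 to 306 (median 274) and 202 to 264 (median 215) CPM, with overlapping groups (log2 fold change −0.29 ± 0.10, adjusted p = 0.032). Dlg2, a paralog of Dlg4 that also clusters potassium channels, was at 468 to 669 (median 592) and 399 to 569 (median 522) CPM and did not pass the test (log2 fold change −0.24 ± 0.11, adjusted p = 0.086), but passed it when the mouse pool entered as a block (log2 fold change −0.25 ± 0.06, adjusted p = 0.00142), where 36.7% of all genes were called.

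Among the linkers, Dlgap3 had the largest difference of the 10 and Dlgap2 the smallest. Dlgap3 was at 533 to 792 (median 657) CPM in the non-ensemble and 289 to 531 (median 380.3) CPM in the sucrose-seeking ensemble (log2 fold change −0.73 ± 0.14, adjusted p = 0.00044), without overlap. Dlgap1 was at 411 to 523 (median 449) and 308 to 396 (median 336) CPM, also without overlap (log2 fold change −0.44 ± 0.10, adjusted p = 0.00231). Dlgap2 was at 168 to 206 (median 186) and 126 to 216 (median 191) CPM, lower in only 4 of 6 pools (log2 fold change −0.06 ± 0.11, adjusted p = 0.714).

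All 3 Shank genes were lower. Shank1 was at 911 to 1400.4 (median 1108) CPM in the non-ensemble and 587 to 815 (median 721) CPM in the sucrose-seeking ensemble (log2 fold change −0.67 ± 0.12, adjusted p = 0.000286), and Shank2 at 311 to 382 (median 344) and 242 to 297 (median 247) CPM (log2 fold change −0.43 ± 0.09, adjusted p = 0.000716). Neither gene's groups overlapped. Shank3 was at 492 to 725 (median 571) and 308 to 534 (median 402) CPM, with overlap (log2 fold change −0.54 ± 0.15, adjusted p = 0.00748). Within each sex, with 3 pools a group, 7 members passed in females (15.9% of all genes) and 2, Shank1 and Shank2, in males (9.39%); with the pool as a block these were 9 (26.4%) and 8 (19.1%). On length-scaled counts 0 passed in either sex. Of all genes, 261 were called higher and 376 lower of 25506 there in females, and 0 of 24696 in males. The fold change differed between the sexes for 0 of 10 (smallest adjusted p = 1.00, edgeR interaction, 0 at an unadjusted p under 0.05; 0.00% of all genes).

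Counts scaled by effective length gave another picture for the same libraries. Of the 10, Dlg3 stayed lower (log2 fold change −0.49 ± 0.13, adjusted p = 0.0114), Dlgap2 was higher (log2 fold change 0.73 ± 0.19, adjusted p = 0.00844) and so was Shank2 (log2 fold change 0.67 ± 0.22, adjusted p = 0.0307), where 19.5% of all genes were called. The log2 fold changes of Dlg4 (0.09), Dlgap1 (0.34) and Dlgap3 (0.15) turned positive without passing the test, and those of Dlg1 (−0.22), Dlg2 (−0.37), Shank1 (−0.25) and Shank3 (−0.06) stayed negative without passing it. TPM of Dlg4, Shank2, Dlgap1 and Dlgap2 was higher in the sucrose-seeking library in 6 of 6 NAc pools, while their CPM was lower in 6, 6, 6 and 4 of them. Of these 4, Shank2 had the largest median log2 difference in TPM within pools, 0.93. It was at 80.8 to 176 (median 125) TPM in the non-ensemble and 154 to 358 (median 253) TPM in the sucrose-seeking ensemble, with overlap. The TPM groups of Dlgap1 (194 to 357 and 364 to 591) and Dlgap2 (132 to 160 and 225 to 384) did not overlap. Dlg3, with a mid-range GC content, was lower on counts and on length-scaled counts.

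**Figure D3:**
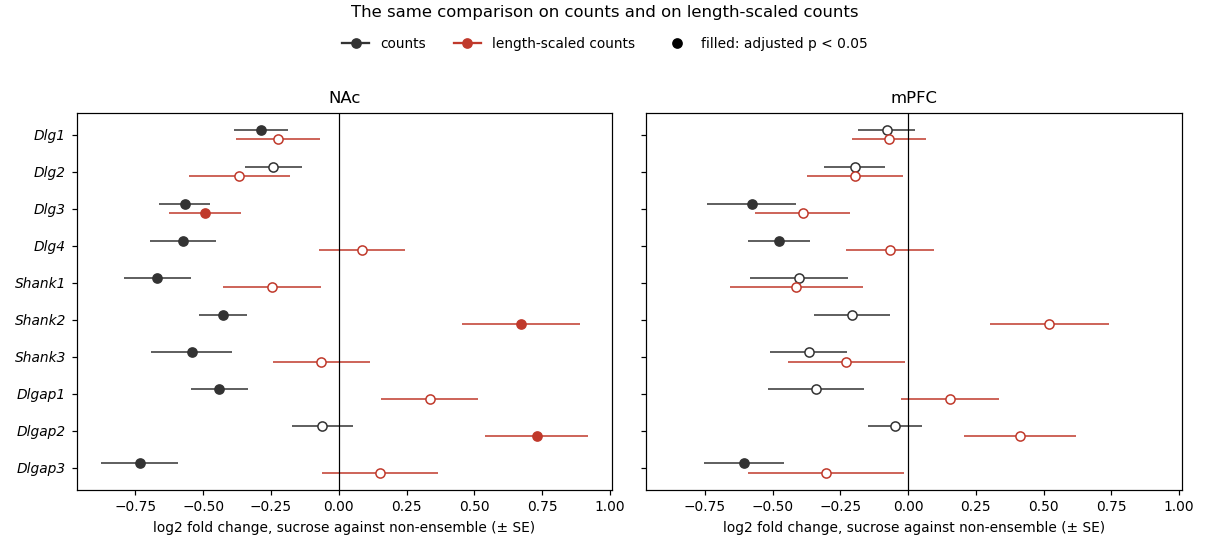
Log2 fold change of each scaffold gene in the sucrose-seeking ensemble against the non-ensemble on counts and on length-scaled counts, in both regions, with standard errors. In the NAc, Shank2 moves from −0.43 to 0.67 and Dlg3 from −0.57 to −0.49.

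Markers of cell types moved with this comparison too. The summed level of 4 neuronal markers (Rbfox3, Snap25, Syt1, Tubb3) was 2693 to 3135 CPM in the NAc non-ensemble and 1673 to 2150.2 CPM in the sucrose-seeking ensemble, and 4 of 4 were called lower. Of 8 medium spiny neuron markers 6 were lower (2129 to 3995 against 1409 to 2828 CPM summed), of 6 interneuron markers 5, and of 5 astrocyte markers 5, of 5 oligodendrocyte markers 2 and of 6 cortical excitatory markers 3, while 5 of 5 endothelial markers were higher (58.2 to 112 against 95.9 to 239 CPM). Of 7 activity-regulated genes, Fos among them, 6 had a negative log2 fold change, 2 were called lower and 0 higher. Their summed level was 278 to 498 CPM in the non-ensemble and 209.5 to 331 CPM in the sucrose-seeking ensemble. The values of single genes, Fos included, are not given here. The study describes the expression of its own set of such genes as mostly found in the sucrose-seeking ensemble, in z-scored values against the non-ensemble. The 5 oligodendrocyte markers summed to 2386 to 3825 CPM in the non-ensemble and 1806 to 2999 CPM in the sucrose-seeking ensemble. For the 5 astrocyte markers these sums were 789 to 1047 and 530 to 740 CPM. None of these summed levels was 0 in any group. Their part in the scaffold results was not tested.

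In the mPFC, 3 of 10 members were lower in the sucrose-seeking ensemble, all 3 also lower in the NAc, where 14.4% of all genes were called and 7.18% were called lower. They were Dlgap3, Dlg3 and Dlg4. Dlgap3 was at 241 to 502 (median 356) CPM in the non-ensemble and 149.6 to 399 (median 223) CPM in the sucrose-seeking ensemble (log2 fold change −0.60 ± 0.15, adjusted p = 0.00819). Dlg3 was at 143 to 328 (median 243) and 89.3 to 218 (median 138) CPM (log2 fold change −0.58 ± 0.16, adjusted p = 0.0202), and Dlg4 at 599 to 989.6 (median 789) and 401 to 812 (median 523) CPM (log2 fold change −0.48 ± 0.12, adjusted p = 0.00819). No member's groups were apart in the mPFC. Lower in 6 of 6 pools were 8 members, these 3 and also Dlg1, Dlg2, Dlgap1, Shank1 and Shank3, which did not pass the test. The log2 fold changes of the 7 that did not pass ranged from −0.05 for Dlgap2 to −0.40 for Shank1.

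With the pool as a block, 8 members were lower in the mPFC; Dlg1 (−0.07, adjusted p = 0.433) and Dlgap2 (−0.05, adjusted p = 0.68) were not, and 27.6% of all genes were called. Leaving out female pool 3 left 1 member lower. On length-scaled counts 0 of 10 passed (2 at an unadjusted p under 0.05; 5.95% of all genes called), with the 3 at −0.30, −0.39 and −0.07 and Shank2 at 0.52. Neuronal markers were lower here in 3 of 4 (1305 to 2685 against 817 to 1821 CPM summed) and endothelial markers higher in 4 of 5, while 3 of 6 interneuron, 2 of 5 oligodendrocyte and 1 of 5 astrocyte markers were lower and 2 of 7 activity-regulated genes were lower and 1 higher; their part was not tested. No member differed between regions in this comparison (smallest adjusted p = 1.00, edgeR interaction over 48 libraries, 0 at an unadjusted p under 0.05; 0.00% of all genes called). Without female pool 2, whose libraries carry Ddx3y, 8 members were lower in the NAc and 3 in the mPFC.

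The cocaine-seeking and overlapping ensembles were compared with the non-ensemble next. All 10 log2 fold changes were negative in each of these 4 comparisons, and 0 of 10 passed the test in each, where 0.159% (cocaine) and 3.06% (overlapping) of all NAc genes were called, and 0.0931% and 0.719% of all mPFC genes. At an unadjusted p under 0.05 7 (cocaine) and 8 (overlapping) members passed for the NAc, 7 and 5 for the mPFC. DESeq2 called 7 of the 20 tests for each ensemble, and the share of all genes it called is not given here. With the pool as a block, 9 members were lower in each of the 4 comparisons, where 11.1% and 17.8% of all NAc genes and 17.2% and 15.7% of all mPFC genes were called. All 4 populations of a pool come from the same mice, so the block compares libraries within a pool.

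Dlg3, Dlg4 and Shank1 show the size of these differences in the NAc. Dlg4 was at 643 to 908 (median 760.1) CPM in the cocaine-seeking ensemble and 605 to 849 (median 764) CPM in the overlapping one, both between the non-ensemble and the sucrose-seeking medians. Its log2 fold change against the non-ensemble was −0.33 ± 0.12 for cocaine (adjusted p = 0.194; 0.00135 with the block) and −0.35 ± 0.12 for overlapping (adjusted p = 0.0928; 0.000296 with the block). Shank1 was at 703 to 1067 (median 796) and 716 to 1093 (median 925) CPM, with log2 fold changes of −0.42 ± 0.12 and −0.28 ± 0.12. Dlg3 was at 170.1 to 214 (median 202) and 151 to 213 (median 192) CPM, with −0.23 ± 0.09 and −0.33 ± 0.09. Each of these groups overlapped the non-ensemble, and the same held for all 10 members in both regions.

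Across the 10, the log2 fold changes in the NAc ran from −0.42 to −0.05 for cocaine (median −0.25, all genes 0.07) and from −0.38 to −0.04 for overlapping (median −0.28, all genes 0.09). In the mPFC they ran from −0.54 to −0.15 (median −0.36) and from −0.53 to −0.11 (median −0.29). The member nearest 0 was Dlgap2 in both NAc comparisons. On length-scaled counts 0 of 10 passed in any of the 4, and 5, 3, 8 and 7 of the 10 were negative (NAc cocaine, NAc overlapping, mPFC cocaine, mPFC overlapping). Of 24979 NAc genes, 6 and 107 were called higher there and 1 and 207 lower, for cocaine and overlapping. Of 26173 mPFC genes, 1 and 29 were called higher and 0 and 6 lower. Microglial markers moved with both ensembles: the sum of 4 (C1qa, P2ry12, Cx3cr1, Csf1r) was 100.1 to 166 CPM in the NAc non-ensemble, 195 to 247 CPM in the cocaine-seeking and 235 to 341 CPM in the overlapping ensemble, with 2 and 4 of 4 called higher (3 and 3 in the mPFC). In the overlapping ensemble, 3 of 4 neuronal markers were also lower in the NAc (2693 to 3135 against 2188 to 2777 CPM summed), and 3 of 5 oligodendrocyte markers in the mPFC (1841 to 3112 against 1003 to 1877 CPM). The part of these markers was not tested. These comparisons share the same non-ensemble libraries, so their directions are not independent of each other.

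No member's fold change against the non-ensemble differed between the sexes for the cocaine-seeking or overlapping ensemble in either region, nor for the sucrose-seeking one in the mPFC (edgeR interaction, smallest adjusted p = 1.00 over these 5 comparisons, 0 at an unadjusted p under 0.05; 0.00%, 0.00%, 0.00745%, 0.00% and 0.00% of all genes called for NAc cocaine, NAc overlapping, mPFC cocaine, mPFC overlapping and mPFC sucrose). On length-scaled counts 0 passed as well, with 4, 2 and 3 members at an unadjusted p under 0.05 for mPFC cocaine, overlapping and sucrose. With the block added to length-scaled counts, 3 members differed in the mPFC cocaine comparison, where 1.77% of all genes were called. The female minus male difference was −1.10 ± 0.25 for Dlg4 (adjusted p = 0.043), −1.36 ± 0.33 for Dlgap3 (adjusted p = 0.0462) and −1.04 ± 0.26 for Dlgap1, whose adjusted p rounds to 0.05. Fitted within each sex, Dlg4 was at −0.75 in females and 0.35 in males, and neither passed.

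**Figure D4:**
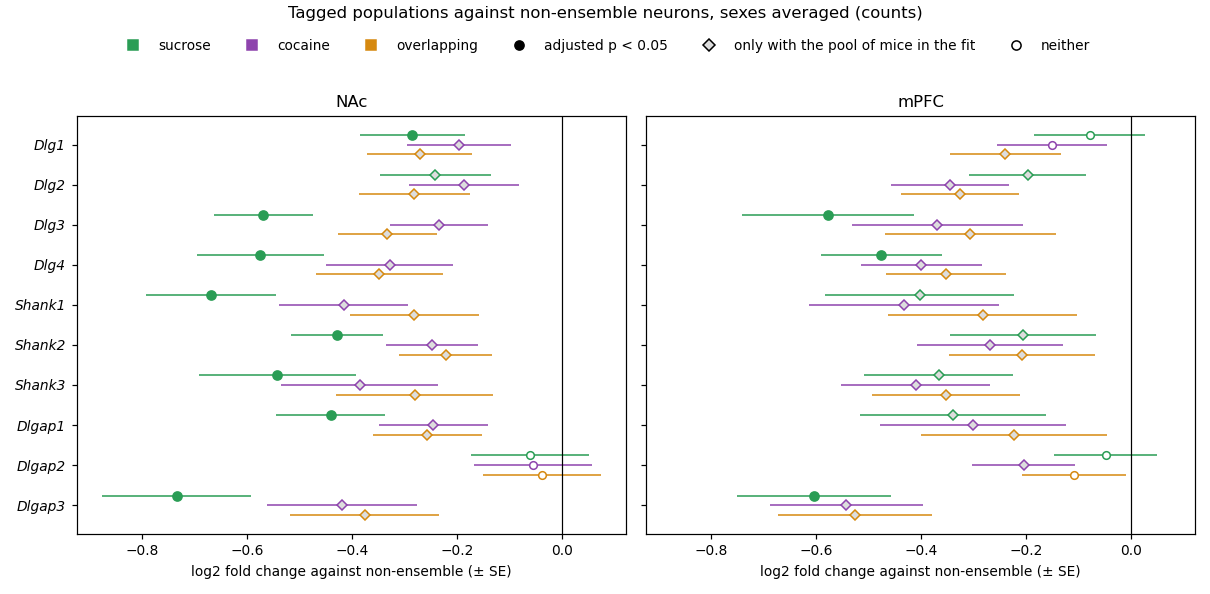
Log2 fold change of each scaffold gene in the sucrose-seeking, cocaine-seeking and overlapping ensembles against the non-ensemble, sexes averaged, with standard errors; filled points passed the test. All 60 values lie below 0, and 8 of the NAc sucrose-seeking and 3 of the mPFC sucrose-seeking values passed.

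Compared with each other, the ensembles differed in 1 member. In the NAc, Dlg3 was higher in the cocaine-seeking than in the sucrose-seeking ensemble (log2 fold change 0.33 ± 0.09, adjusted p = 0.0372), the only one of 10 where 5.85% of all genes were called. This call was lost without any 1 of the 3 female pools, without male pool 1 or male pool 2, without the filter on low counts and on length-scaled counts (0.23, adjusted p = 0.511), and with the block 6 members passed, all higher (16.6% of all genes). The overlapping and sucrose-seeking ensembles gave 0 of 10 in either region (4 and 0 at an unadjusted p under 0.05, 1.50% and 0.398% of all genes called). They gave 8 of the 20 tests with the block and 0 of 20 on length-scaled counts. With the block, 2156 genes were called higher and 871 lower of 25150 in the NAc, and 952 and 808 of 26861 in the mPFC. In the mPFC, cocaine against sucrose gave 0 of 10 (0 at an unadjusted p under 0.05, 0.491%). Cocaine against overlapping gave 0 of 10 in both regions, with sexes averaged and within each sex, in the main fit and under each alternative. In the main fit with sexes averaged, its log2 fold changes lay between −0.15 and 0.10 (0.00% and 0.00% of all genes called; 0 members at an unadjusted p under 0.05).

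The regions were then compared, with the 4 populations of a pool summed so that a pool of mice counted once. Averaged over the sexes, 6 of 10 members were higher in the NAc and 0 in the mPFC, where 24.7% of all genes were called; the median of all genes was −0.16. Dlgap3 had the largest difference (log2 fold change 0.95 ± 0.14, adjusted p = 0.00015), followed by Dlg1 (log2 fold change 0.73 ± 0.11, adjusted p = 0.000133) and Dlgap2 (log2 fold change 0.53 ± 0.10, adjusted p = 0.00176). As the mean CPM of the 4 libraries of a pool, Dlgap3 in females was at 480.2, 598 and 529.5 CPM in NAc pools 1, 2 and 3 and at 253, 247 and 191 CPM in the mPFC ones; in males it was at 416, 434 and 606 CPM and 270.0, 376 and 338 CPM. Every NAc pool was above every mPFC pool for this gene. Dlg1 was at 232, 249.6 and 238 CPM in female NAc pools and 145, 144 and 125 CPM in female mPFC pools, and at 209.6, 232 and 273 and 149, 159 and 182 CPM in males. Dlg1 also had no overlap, whereas Dlgap2 did (153, 169 and 208 CPM in male NAc pools, 146, 163 and 165 CPM in male mPFC pools), although each NAc pool of all 3 genes exceeded the mPFC pool of the same number in its sex. Shank3 (0.47), Dlg4 (0.38) and Dlg2 (0.37) were the other 3 that passed. On length-scaled counts 0 of 10 passed (4 at an unadjusted p under 0.05, 16.9% of all genes called), with Dlgap3 at 0.43 ± 0.18, Dlg2 at 0.43 ± 0.15, Dlg1 at 0.33 ± 0.12 and Shank1 at −0.31 ± 0.15.

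The female and the male pools gave different pictures. In females 10 of 10 were higher in the NAc, by 0.53 to 1.34 on the log2 scale, where 45.7% of all genes were called and the median of all genes was −0.34; on length-scaled counts only Dlg2 passed (log2 fold change 0.91 ± 0.21, adjusted p = 0.00615; 31.1%). In males 0 of 10 passed (2 at an unadjusted p under 0.05, 2.32% of all genes called), with values from −0.28 to 0.57. On length-scaled counts 0 passed in males, where 118 of 30005 genes were called higher and 246 lower. The test of the difference between the sexes passed for 0 of 10, with all 10 differences positive, the smallest adjusted p at 0.0786 and 0.00% of all genes called; with the block Dlgap2 passed (log2 fold change 0.75 ± 0.20, adjusted p = 0.0495; 4.15% of all genes). All 12 female mPFC libraries had low Slc17a7, and their Dlgap3 length ratio was 0.103 to 0.316 against 0.135 to 0.94 in the male mPFC ones. Low Slc17a7 was not limited to females, since mPFC male pool 2 had it too, and its part and that of the length ratio were not tested. In male pools 1 and 3, where mPFC Slc17a7 was high, the log2 differences of NAc over mPFC were 0.62 and 0.84 for Dlgap3, 0.49 and 0.59 for Dlg1 and −0.24 and −0.34 for Shank1. In male pool 2 they were 0.21 for Dlgap3, 0.54 for Dlg1 and 0.02 for Shank1. In that pool 5 members were lower in the NAc, among them Dlg3 at −0.51 and Shank3 at −0.35. Male pool 1 had more members lower in the NAc than pool 2, among them Dlg3 at −0.44 and Dlgap1 at −0.41. Male pool 3 had fewer, Shank1 and Dlgap1 (−0.21). In the 3 female pools all 10 were higher in the NAc. The count of 6 fell to 3 without female pool 1, without female pool 3 or without male pool 3, and that of females to 6 without female pool 3.

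**Figure D5:**
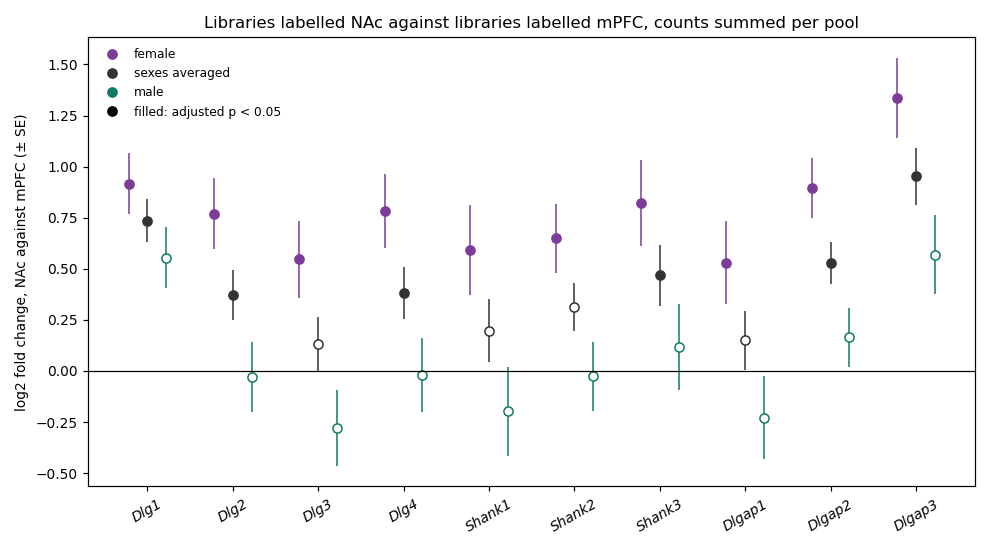
Log2 fold change of each scaffold gene, NAc against mPFC, on counts summed per pool of mice, in females, in males and averaged over the sexes, with standard errors; filled points passed the test. The female value is above the male one for each of the 10 genes, and all 10 female, 6 averaged and 0 male values passed.

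Several members were carried mainly by 1 or 2 transcripts, as far as Salmon could split reads among transcripts of a gene that share exons. Dlgap1 and Dlgap2 were more divided: by TPM, Dlgap1-209 held 33.3% and Dlgap2-209 30.5%, with no other transcript of either gene over 20%. As a share of the gene's TPM over 48 libraries, Dlg4-203 held 67.1%, Shank2-201 66.9%, Dlgap3-201 60.5% and Shank3-203 56.3%, while Dlg3 was divided between Dlg3-202 (40.6%) and Dlg3-201 (31.6%) and Shank1 between Shank1-202 (39.1%) and Shank1-203 (24.5%). Dlg1 and Dlg2 differed: the leading transcripts by TPM, Dlg1-213 (44.3%, 470 bases) and Dlg2-212 (24.99%), have no defined coding sequence and held only 11.5% and 4.41% of the counts. By counts, the coding transcripts Dlg1-205 (26.95%) and Dlg2-204 (34.5%) led; they and Dlgap1-201 were picked after their values had been seen.

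Some shares differed between populations or regions, given here as a description. Dlg1-213 held 22.01% ± 4.22 (SD, n = 6) of Dlg1 TPM in the NAc non-ensemble and 37.4% ± 8.66 in the sucrose-seeking ensemble, and 49.7% ± 11.5 and 56.7% ± 9.29 in the mPFC. Shank2-201 held 54.9% ± 11.4 in the NAc non-ensemble and 73.7% ± 8.42 in the sucrose-seeking ensemble, and Dlgap1-201 went the other way, 14.9% ± 3.99 and 6.06% ± 1.54. Dlgap2-209 ran from 3.19% to 73.9% over the 48 libraries, the widest range named here. These shares use the same effective lengths, whose part was not tested.

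The other genes of the postsynaptic density, a list of 43 (receptor subunits, Homer proteins, neuroligins and signalling proteins), showed the direction of the members in the sucrose-seeking comparison. In the NAc 23 were lower and 0 higher, where 16.7% of all genes were called lower, with a median log2 fold change of −0.32. On length-scaled counts 6 were lower and 6 higher (19.5% of all genes called), with a median of 0.05. On counts the 3 with the smallest adjusted p were Nlgn3 (log2 fold change −0.50 ± 0.09, adjusted p = 0.000276) and Nlgn2 (log2 fold change −0.56 ± 0.11, adjusted p = 0.000471), neuroligins that bind presynaptic neurexins, and Agap2 (log2 fold change −0.64 ± 0.13, adjusted p = 0.000488). In the mPFC 10 were lower and 0 higher (7.18% of all genes called lower), or 2 and 1 on length-scaled counts (5.95% called), led on counts by Lin7c (log2 fold change −0.60 ± 0.13, adjusted p = 0.00481), Mpp2 (log2 fold change −0.50 ± 0.12, adjusted p = 0.00762) and Cacng2 (log2 fold change −0.50 ± 0.12, adjusted p = 0.01), the AMPA receptor auxiliary subunit stargazin. Against the non-ensemble, 0 of 43 passed in the cocaine-seeking or the overlapping ensemble in either region, on counts or on length-scaled counts. In the NAc, 3 were higher in the cocaine-seeking than in the sucrose-seeking ensemble (5.85% of all genes called), and 0 on length-scaled counts: Nlgn3 (log2 fold change 0.42 ± 0.09, adjusted p = 0.0153), Nlgn2 (log2 fold change 0.48 ± 0.11, adjusted p = 0.0177) and Lin7c (log2 fold change 0.45 ± 0.11, adjusted p = 0.0236). Between regions, 22 were higher in the NAc and 1 was lower (24.7% of all genes called), or 18 and 1 on length-scaled counts (16.9%), with Cacng2 (log2 fold change 0.81 ± 0.10, adjusted p = 3.01e-05), Sipa1l2 (log2 fold change 0.76 ± 0.10, adjusted p = 4.13e-05) and Cnksr2 (log2 fold change 0.92 ± 0.12, adjusted p = 7.3e-05) at the smallest adjusted p on counts.

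The members varied together over the 16 group means of log2 CPM, which share libraries, depth and normalization. Pearson's r between a member and the mean z-score of the 10 ran from 0.8 for Dlg1 to 0.978 for Dlg4. That mean includes the member itself, which raises r. The closest pair was Shank1 and Dlgap1 (r = 0.985) and the least alike were Dlg1 and Dlg3 (r = 0.418). Outside the 10, the 5 genes most like the members' mean were Elavl3 (r = 0.995), Hectd4 (0.994), Dip2c (0.993), Tnpo2 (0.992) and Spag9 (0.992). All 5 were above every member. The spread of r over all genes is not given here, so these values do not set the members apart.

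The naive libraries were set beside the non-ensemble last. Their files came from another Salmon run and were deeper, at 29238727 to 45299753 counts, so processing and group cannot be told apart. In the NAc, 6 members were lower in the non-ensemble than in naive (23.7% of all genes called), and in the mPFC 9, all but Dlg3 (46.3%). In female NAc 8 were lower (12.1%). In female mPFC 10 of 10 were lower, from −0.64 for Dlg3 to −2.26 for Shank1 (33.1%). Shank1 there was at 2506, 4029.9 and 1986 CPM in the naive libraries and 542, 803 and 841 CPM in the non-ensemble. Markers differed there too: Slc17a7 was at 574 to 1237 CPM in naive and 27.6 to 80.4 CPM in the non-ensemble. In male mPFC it was at 220 to 289 and 40.4 to 703 CPM. The summed neuronal markers were at 2433 to 4446 and 1305 to 1750 CPM in females, and 2379 to 2999 and 2134 to 2685 CPM in males. The part of these markers was not tested. In male mPFC 0 of 10 passed (1 at an unadjusted p under 0.05; 16.5%), and in male NAc only Shank1 did, higher in the non-ensemble (log2 fold change 0.73 ± 0.18, adjusted p = 0.00704; 11.4%). Single libraries decided some of these calls. In female mPFC, Dlg3 no longer passed in 7 of 12 fits that each left out 1 library, and stood at −0.21 without female naive replicate 2. The Shank1 call of male NAc was lost without male non-ensemble replicate 1 (0.59), and 4 of the 8 female NAc calls were lost in 1 or more of the 12 fits, that of Dlgap1 in 5. The counts of 6 and 9 became 5 to 7 and 9.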

How the data were processed

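Per the labels and the study's methods, cells of 3 mice of a sex were pooled, sorted by NeuN, tdTomato and cFos, and made into low-input libraries. The authors used CutAdapt for adapters and ran Salmon on a GRCm39 transcriptome (versions and bias options: not given in the sources used here). Deposited files hold, per transcript, estimated counts (NumReads, not normalized), TPM (transcript levels per length, with a fixed sum in each library) and an effective length, a Salmon length in bases recorded here as another unit. Of 117209 transcripts, 116085 matched GENCODE vM39, and the rest held 2.23% to 7.10% of the counts of the 48 libraries. The naive files have other effective lengths and more decimals, so their Salmon run differed.

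Estimated counts deposited by the authors were summed per gene, rounded and tested with edgeR 4.0.16 (quasi-likelihood test, TMM factors, filterByExpr) in R 4.3.3, with Benjamini-Hochberg adjustment over all genes tested and calls at an adjusted p under 0.05. Standard errors are the log2 fold change divided by the square root of F. Length-scaled counts are the deposited TPM multiplied by a gene's mean effective length and scaled to the library total. limma 3.58.1 (voom), DESeq2 1.42.0, other size factors, no filter, a stricter threshold and leaving out each library or pool were alternatives; the fit of length-scaled counts with the block, length-scaled counts between regions, and DESeq2, limma-voom and length-scaled counts for the differences between sexes were added after seeing the data. The scripts were tested on simulated data.

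The replicate number marks the pool of mice from which all 4 populations were sorted. Same-numbered libraries deviated together (mean correlation of deviations 0.199 and 0.14 in NAc females and males, 0.273 and 0.239 in the mPFC, against -0.099, -0.069, -0.136 and -0.119 for other numbers), although the lowest single pair was at -0.029. The study's methods name edgeR and limma, with comparisons within region and sex, and mention no block. The main fits here have none and average the sexes, the fits within each sex being given beside them. In fits without the block, p-values measure the spread between pools and do not use the pairing of populations within a pool. With the block, they measure the spread left after each pool's own level is taken out. Pairs of replicates differed beyond sampling noise, so none was counted as 1 sample. The 10 members, the list of 43 genes and the markers (with 7 activity-regulated genes) were chosen with earlier results of these data known. An item of the marker lists is not reported here. Named genes are the 10, up to 3 of the 43 with the smallest adjusted p per comparison, and the 5 genes most like the members' mean. CPM are counts scaled to the library total with TMM factors.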

Additional observations from a re-analysis of the deposited data

Results flagged for a closer look

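The Y-linked gene Ddx3y was read in female-labelled libraries. In the 8 libraries of female pool 2 its median was 14.5 CPM (12.9 to 21.98 CPM), in both regions and all 4 populations, against 0.0697 to 2.43 CPM in female pools 1 and 3 and 16.6 to 47.7 CPM in the male libraries. It was singled out because Ddx3y is no part of the scaffold comparisons and its level lay above that of the other female libraries. Without this pool, 8 scaffold genes were lower in the sucrose-seeking ensemble of the NAc and 3 in that of the mPFC. Groups of 3 libraries are too small for a test of single outlying values, and none was run.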

How the results depend on the processing

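Scaffold genes lower in the sucrose-seeking ensemble of the NAc numbered 8, and 1 on length-scaled counts, 2 on length-scaled counts with the pool as a block and 0 at an adjusted p under 0.01 with an absolute log2 fold change over 0.75; 0 were higher, and 2 on length-scaled counts with or without the block. The 3 of the mPFC became 8 with the block, 5 by DESeq2, 0 on length-scaled counts, 1 with these and the block (which then had 2 higher), and 0 at the stricter threshold. Within region and sex, 9 of 40 became 31 with the block, 18 by DESeq2, 0 on length-scaled counts, 5 with these and the block (1 lower and 4 higher), and 1 at the stricter threshold.

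With the mouse pool as a block, calls against the non-ensemble rose from 0 to 18 of 20 for each of the cocaine-seeking and overlapping ensembles, and within sexes from 0 to 17 and 14 of 40 (overlapping also 1, Shank2 in NAc females, which was higher, on length-scaled counts with the block). DESeq2 called 7 of 20 for each, and other size factors and limma-voom 1 of 20 for overlapping. Cocaine against sucrose had 1 of 20, and 6 with the block, 0 without the filter, 0 on length-scaled counts, 0 on these with the block and 0 at the stricter threshold (within sexes 4 with the block and 1 by DESeq2, from 0). Overlapping against sucrose went from 0 to 8 of 20 and 5 of 40 with the block and to 1 and 1 by DESeq2. NAc against mPFC in males, and its difference between sexes, went from 0 to 1 with the block. Differences between the sexes in the population comparisons had 0 of 60, and 3 on length-scaled counts with the block. The block alone changed no other call beyond those given with the results. Counts in this section stand without the share of all genes called in the same fit. They do not show that members were called more often than other genes.

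Signs turned on length-scaled counts, first without and then with the block, for log2 fold changes of the sucrose-seeking ensemble in the NAc: Dlg4 to 0.0861 and 0.0922, Dlgap1 to 0.34 and 0.36, Dlgap3 to 0.15 and 0.16 and Shank2 to 0.67 and 0.65 with sexes averaged; Dlg4 to 0.0085 and 0.0112, Dlgap1 to 0.29 and 0.32, Dlgap3 to 0.16 and 0.17 and Shank2 to 0.77 and 0.74 in females; and Shank2 to 0.58 and 0.55 in males. Between regions, the 6 members higher in the NAc became 0 on length-scaled counts and the 10 of females 1, with Shank1 at -0.35, Shank2 at -0.28 and Shank3 at -0.011 in females. Leaving out a library or pool gave 6 to 9 members for the NAc and 1 to 4 for the mPFC (1 without female pool 3) in the sucrose-seeking comparison, 4 to 13 of 40 within sexes (4 without NAc female sucrose replicate 1, non-ensemble replicate 2 or sucrose replicate 3, and 13 without NAc male sucrose replicate 3), 0 to 3 of 20 for overlapping against non-ensemble (3 without male pool 3), 0 to 2 of 20 (2 without male pool 3) and 0 to 1 of 40 for cocaine against sucrose, 3 to 7 for NAc against mPFC, 6 to 10 for females and 0 to 7 for the difference between sexes (7 without male pool 3). The cause of these changes was not tested.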
